A study of Mus musculus with 6 samples.

Results

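Ubiquitin-conjugating enzymes, or E2 enzymes, were examined in fully grown mouse oocytes through all probe sets that the platform annotation assigns to a single gene symbol starting with Ube2. The rule took 81 of 45037 probe sets other than controls, and these stood for 33 of 18193 named genes. Of the 33, 32 are annotated as protein-coding, and Ube2d-ps is annotated as a long noncoding RNA derived from the Ube2d family. Ube2cbp, also called Ube3d, carries the prefix because its protein binds the E2 Ube2c, and it is not an E2 itself. The rule uses gene symbols and no expression value, but the members were chosen with earlier results of these data known. A further 4 probe sets list Ube2l3 beside other genes, 5 symbols each, and were therefore not assigned to it.

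The arrays compared 2 groups of germinal vesicle (GV) oocytes, which are held in meiotic prophase and still have their nucleus. The XY oocytes came from B6.Y(TIR) females, whose Y chromosome, placed on the C57BL/6 background, leaves some XY animals with ovaries, and the XX oocytes came from XX females. Animals of both genotypes were 25 to 29 days old, received 5 IU of equine chorionic gonadotropin and were killed 45 to 47 hours later, after which cumulus cells were stripped from the oocytes. Each of the 6 arrays, 3 per genotype, was made from RNA of 10 pooled oocytes, primed with oligo(dT) and amplified in a 2-cycle protocol before hybridization to a 3' expression array. The XY oocyte as a model differs from XX in both sex chromosomes, so that the presence of the Y and the single X cannot be told apart here. The comparison addressed which stored transcripts differ between oocytes of XY females and those of XX females.

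Ubiquitin is attached to proteins by a relay. An E1 enzyme activates ubiquitin, an E2 receives it on a cysteine, and an E3 ligase brings the E2 to the substrate, so that the E2 largely sets the kind of ubiquitin chain and the E3 sets the target. The fully grown oocyte has stopped most transcription and enters meiosis with stored mRNA, and its exit from metaphase depends on ubiquitination by the anaphase-promoting complex. In the mouse, Ube2a is a maternal gene: embryos of mothers that lack it stop dividing after the first cleavage, whereas loss of its close relative Ube2b makes males infertile.

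All values below are log2(quantile-normalized intensity + 9) unless a sentence names another scale, and a change is the XY mean minus the XX mean on that scale, so that a change of 1 is a doubling and dim genes are understated. A gene is called changed where limma's adjusted p, by the Benjamini-Hochberg method over all 12442 genes tested, lay below 0.05. Levels of different genes were read by different probes and are not set against each other. Of the 33 genes, 31 were bright enough to test, 30 of them on all 6 arrays. Ube2ql1 was bright enough on 3 XY and 1 XX arrays, so that its test owed more to the XY arrays. Ube2d2b, a relative of Ube2d2a, and Ube2l6, the E2 of the interferon-induced modifier ISG15, were too dim to test.

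The Ube2 genes moved in both directions, with 3 higher and 3 lower in XY oocytes. The genes that rose were Ube2cbp, Ube2u and Ube2d-ps, and those that fell were Ube2a, Ube2q2 and Ube2h. The 6 called genes made up 19.4% of the 31 tested, against 13.2% of all 12442 genes. They include Ube2cbp and Ube2d-ps, which are not E2 enzymes. Without these 2 the share called is smaller and close to that of all genes, and most called genes fell. By direction, 7.86% of all genes were higher and 5.34% were lower in XY. The median change of the 31 genes was -0.03, against 0.07 for all genes, and their median absolute change was 0.32, against 0.34 for all genes. The XY and XX values did not overlap in 17 of the 31 genes, or 54.8%, and in 38.8% of all genes. When any 1 array other than XX 1 was left out, Ube2a was the only one of the 6 that remained called. These shares describe the genes beside the whole array, and no test of the difference in shares was made.

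**Figure D1:**
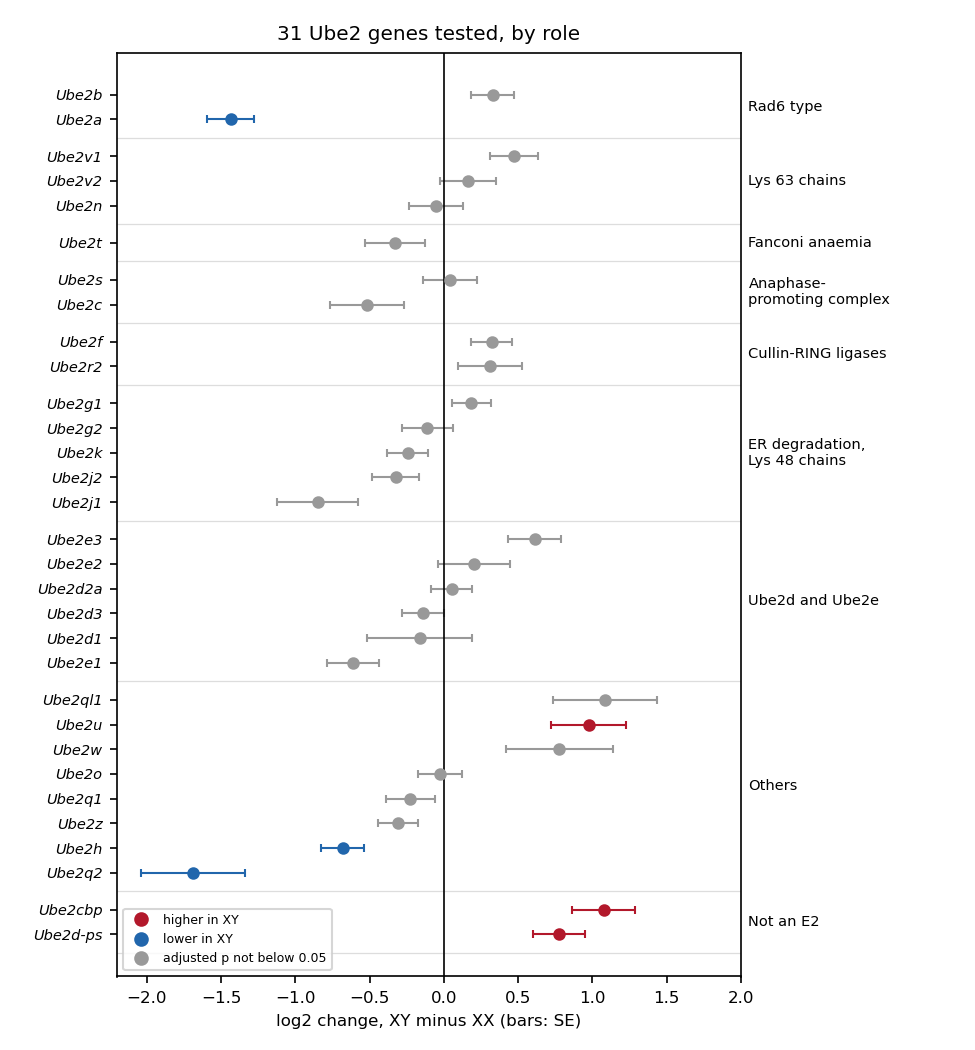
Log2 change of each of the 31 tested Ube2 genes, XY minus XX, with its standard error, grouped by the role of the encoded protein on the vertical axis. Red and blue points are the 6 called genes; they run from -1.69 for Ube2q2 to 1.08 for Ube2cbp.

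Ube2a encodes an orthologue of yeast Rad6. Its protein works with Rad18 on the replication clamp PCNA, with Rnf20 and Rnf40 on histone H2B, and with Ubr ligases on proteins marked by their N-terminal residue. Ube2a lies on the X chromosome and was the only X-linked Ube2 gene on the array's list of single symbols. Its levels were 9.92, 10.03 and 10.23 in XY oocytes and 11.34, 11.58 and 11.57 in XX oocytes. All 3 XY arrays lay below all 3 XX arrays, by more than the spread within either group. The means were 10.1 ± 0.157 in XY and 11.5 ± 0.136 in XX (SD, n = 3 each), and Ube2a fell by 1.43 ± 0.16 (SE, limma's adjusted p = 0.00478). A second Ube2a probe set gave 9.91, 9.62 and 9.88 in XY and 11.18, 11.00 and 11.10 in XX. This probe set had a change of -1.29 ± 0.16 (SE) and was called lower too (limma's adjusted p = 0.00898 over 22997 probe sets). Ube2a remained called in all 18 alternative settings tried, with changes from -1.96 to -1.28 and limma's adjusted p from 0.000341 to 0.0471.

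The fall of Ube2a was set beside the other X-linked genes, since XY oocytes carry a single X chromosome. Of 375 X-linked genes tested, 111, or 29.6%, were called. Of the 375, 95 were lower in XY, or 25.3%, and 16 were higher, or 4.27%, and the median change was -0.28. The median of the 95 that fell was -1.09. Ube2a lay among the larger falls: 21 X-linked genes had a more negative change, and 19 of those 21 were called lower. On the autosomes, Ube2q2 had a more negative change than Ube2a.

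Ube2b, on chromosome 11, is the other mammalian relative of yeast Rad6 and can stand in for Ube2a in many reactions. Its main probe set read 10.36, 10.24 and 10.30 in XY and 10.04, 10.07 and 9.82 in XX. The groups did not overlap and XY was the higher, but the change of 0.33 ± 0.15 (SE) was not called (limma's adjusted p = 0.167). A second Ube2b probe set pointed the other way, at 8.81, 8.38 and 8.39 in XY against 8.95, 9.36 and 9.48 in XX, a change of -0.73 that was not called either (limma's adjusted p = 0.0700 over probe sets). The direction of Ube2b also turned in 3 of 18 alternative settings: the change was -0.04 on the deposited intensities, -0.21 with median scaling and -0.20 with the mean of its probe sets. No direction can therefore be given for Ube2b.

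The 2 relatives were compared within each array, where array-wide scaling cancels. Ube2a minus Ube2b was -0.44, -0.22 and -0.07 in XY and 1.30, 1.51 and 1.75 in XX. Because the probe sets differ, only the shift between groups can be read, not which gene was the more abundant. That shift was -1.76 ± 0.17 (SE), with an exact two-sided permutation p = 0.1 for 3 arrays against 3, the smallest this design allows. With the mean of each gene's probe sets it was -1.16.

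The bases before the transcription start of the 3 called genes that fell are shown with those of Ube2b, to set the related pair Ube2a and Ube2b side by side. The sequences are the 250 bases before the annotated start, from RefSeq on assembly GRCm38.p6, and capitals mark matches, on either strand, to one of the short promoter motifs that are spelled out after the sequences. No match overlaps another motif's match in these windows.
Ube2a, chrX:36874045-36874294, plus strand: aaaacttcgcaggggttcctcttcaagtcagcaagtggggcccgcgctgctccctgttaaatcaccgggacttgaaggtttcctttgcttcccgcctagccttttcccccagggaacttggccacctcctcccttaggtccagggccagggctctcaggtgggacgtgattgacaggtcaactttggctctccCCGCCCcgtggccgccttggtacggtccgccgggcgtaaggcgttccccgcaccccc
Ube2b, chr11:52000787-52001036, minus strand: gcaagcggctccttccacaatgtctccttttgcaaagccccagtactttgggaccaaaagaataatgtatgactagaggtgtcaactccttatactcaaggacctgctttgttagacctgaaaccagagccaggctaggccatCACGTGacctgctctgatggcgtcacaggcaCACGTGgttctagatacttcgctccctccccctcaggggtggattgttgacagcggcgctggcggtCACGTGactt
Ube2q2, chr9:55149119-55149368, plus strand: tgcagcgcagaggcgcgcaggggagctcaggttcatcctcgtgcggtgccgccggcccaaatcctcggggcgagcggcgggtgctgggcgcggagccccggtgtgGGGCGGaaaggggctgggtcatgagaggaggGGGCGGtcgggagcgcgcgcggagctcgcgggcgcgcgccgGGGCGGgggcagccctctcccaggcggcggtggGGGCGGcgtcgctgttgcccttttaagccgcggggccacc
Ube2h, chr6:30304540-30304789, minus strand: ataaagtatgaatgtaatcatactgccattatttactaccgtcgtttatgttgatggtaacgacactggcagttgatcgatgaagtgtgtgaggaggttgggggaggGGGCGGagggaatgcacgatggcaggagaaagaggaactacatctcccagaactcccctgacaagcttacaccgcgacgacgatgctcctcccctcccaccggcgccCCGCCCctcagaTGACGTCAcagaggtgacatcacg
The Ube2a window held 1 GC box and none of the other motifs, and the Ube2b window, which lies inside the annotated span of the gene, held 3 E boxes and no GC box. Ube2q2 held 4 GC boxes, and Ube2h held 2 GC boxes and a cyclic AMP response element. A window was given for 27 of the Ube2 genes and for 27025 genes in all. A GC box, GGGCGG, was in 18 of the 27 windows, and in 33% of all windows. All windows here are those of the 27025 genes, which were not limited to the 12442 genes tested on the arrays. The CCAAT box was in 7 of the 27, against 34.5% of all windows. An ETS motif, searched as CCGGAAG, was in 5 of the 27, against 7.07% of all windows. E boxes, searched as CACGTG, were in the windows of Ube2b and Ube2q1 alone among the 27, against 6.04% of all windows. The cyclic AMP response element, TGACGTCA, was in that of Ube2h, against 1.6% of all windows. A TATA box, searched as TATAAA, was in that of Ube2s, against 13% of all windows. The Ube2 windows had a median GC content of 67.6%, against 52.0% for all windows. These matches describe letters in a window and not bound sites.

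Ube2q2 and Ube2h were the autosomal genes that fell. Ube2q2, on chromosome 9, belongs to a family of E2 enzymes with a long N-terminal extension. It read 5.53, 5.76 and 5.80 in XY and 6.53, 7.87 and 7.75 in XX, so that the 3 XY arrays sat together below all XX arrays and XX 1 lay between them and the other XX arrays. Ube2q2 fell by 1.69 ± 0.35 (SE, limma's adjusted p = 0.0245). With the Actb 3' to 5' control ratio, described further on, as a covariate, its change was -0.88 and was not called (limma's adjusted p = 0.0873). Ube2h, on chromosome 6, supplies ubiquitin to the CTLH ligase, which in the fly degrades maternal proteins at the passage from oocyte to embryo. It read 11.63, 11.79 and 11.59 in XY and 12.31, 12.47 and 12.28 in XX, with no overlap and little spread in either group. It fell by 0.68 ± 0.15 (SE), with limma's adjusted p = 0.0274. Neither of its other tested probe sets was called: one changed by -0.22 (limma's adjusted p = 0.547 over probe sets) and the other, a set that may bind several transcripts by its suffix, by 0.26 (limma's adjusted p = 0.370). With the mean of its probe sets the change of Ube2h was -0.21 and was not called (limma's adjusted p = 0.310), whereas on the deposited intensities it was -1.04 and with median scaling -1.20, both called.

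The genes that rose, Ube2cbp, Ube2u and Ube2d-ps, each had a single tested probe set. A second probe set of Ube2d-ps was too dim to test. Ube2cbp, on chromosome 9, encodes a ligase that binds E2 enzymes, and read 10.34, 10.27 and 10.08 in XY against 9.57, 8.96 and 8.93 in XX. All XY arrays lay above all XX arrays, and the gene rose by 1.08 ± 0.21 (SE), with limma's adjusted p = 0.0207. Ube2u, on chromosome 4, encodes a little-studied member of the E2 family and read 9.88, 10.02 and 9.69 in XY against 9.40, 8.79 and 8.48 in XX. It rose by 0.97 ± 0.25 (SE), with limma's adjusted p = 0.0456. Over probe sets in place of genes the same values gave an adjusted p of 0.0540 in limma, which is not a call. Ube2d-ps, on chromosome 11, read 8.25, 8.24 and 8.13 in XY and 7.63, 7.14 and 7.54 in XX, and rose by 0.77 ± 0.17 (SE), with limma's adjusted p = 0.0313. As a copy of Ube2d genes its probe set may also read their transcripts, which was not tested. The sizes of these rises depended on the scaling and the covariate. With median scaling the change was 0.57 for Ube2cbp, 0.48 for Ube2u and 0.40 for Ube2d-ps, and with the Actb covariate it was 0.69 for Ube2cbp and 0.56 for Ube2u, none of them called by limma. Ube2u had a change of 0.64 on the deposited intensities, again without a call. Ube2ql1, a relative of Ube2q, read 5.71, 5.55 and 5.71 in XY and 4.17, 4.10 and 5.44 in XX. XX 3 lay close to the XY arrays, and the gene was not called (limma's adjusted p = 0.0816). Because XX 1 and XX 2 were dim, the size of its change was set by the pseudocount, at 1.08 with 9, 1.52 with 1 and 0.62 with 32.

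**Figure D2:**
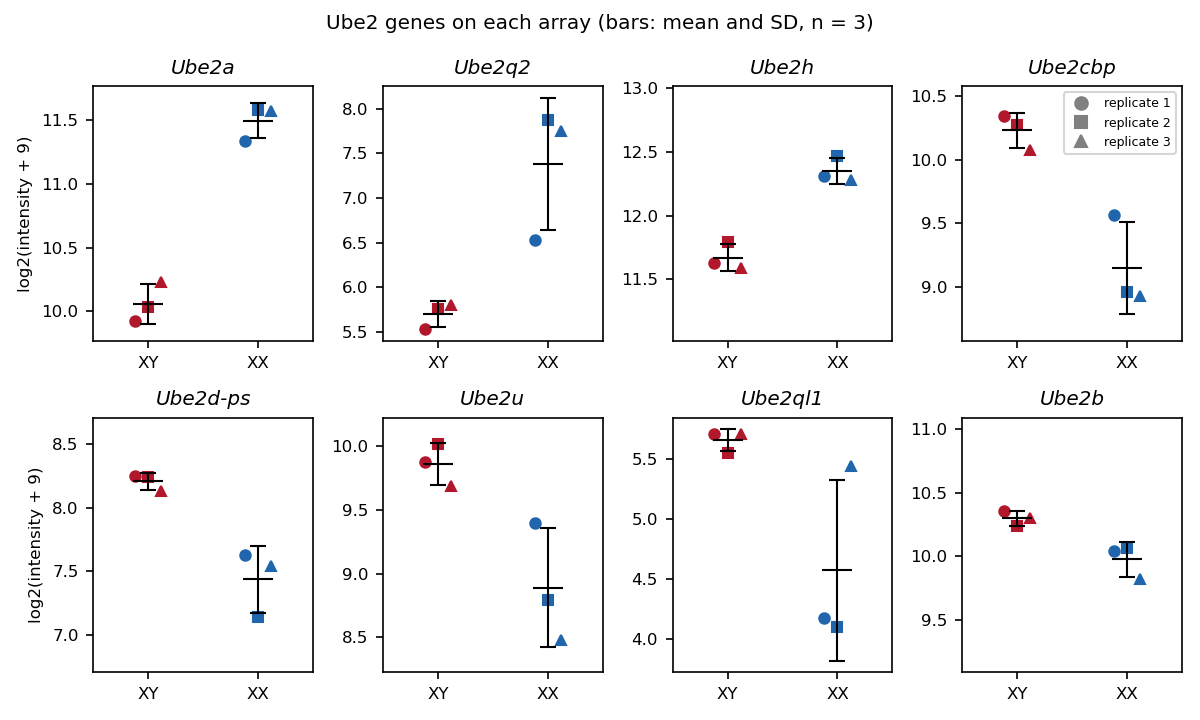
Log2 level on each array, in log2(quantile-normalized intensity + 9), of the 6 called Ube2 genes with Ube2ql1 and Ube2b, with XY arrays left of XX arrays, bars for the mean and SD (n = 3) and a vertical axis of its own in each panel. XY 1 to XY 3 lie below all XX arrays for Ube2a, Ube2q2 and Ube2h and above them in the other panels.

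The remaining 23 tested genes other than Ube2b and Ube2ql1 are given by role, and none of them was called by limma, although 5 had an unadjusted p below 0.05. Of all 12442 genes, 4003 had an unadjusted p below 0.05 in limma. Ube2c and Ube2s work in turn with the anaphase-promoting complex, Ube2c to start a chain on its targets and Ube2s to extend it. Ube2c changed by -0.52 (limma's adjusted p = 0.194) and Ube2s by 0.04, and the XY and XX arrays overlapped for both. Ube2n joins with Ube2v1 or Ube2v2, which lack the catalytic cysteine, to build chains that signal in DNA repair and immunity instead of marking for destruction. Ube2n changed by -0.06, Ube2v2 by 0.16 and Ube2v1 by 0.47 (limma's adjusted p = 0.0932). Ube2t, the E2 of the Fanconi anaemia pathway of DNA crosslink repair, changed by -0.33 (limma's adjusted p = 0.298).

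The Ube2d enzymes serve many ligases, and Ube2e1, Ube2e2 and Ube2e3 are their relatives with an added N-terminal stretch. Ube2d1, Ube2d2a and Ube2d3 changed by -0.16, 0.05 and -0.14. The other tested probe sets of Ube2d2a changed by -0.33, -0.36 and -0.36, none of them called. The Ube2e genes did not move together: Ube2e1 changed by -0.61 (limma's adjusted p = 0.0586), Ube2e3 by 0.61 (limma's adjusted p = 0.0615) and Ube2e2 by 0.20. Ube2e1 and Ube2e3 thus missed the threshold narrowly, in opposite directions, and in both the XY and XX arrays did not overlap.

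Ube2g2, Ube2j1 and Ube2j2 act at the endoplasmic reticulum, where misfolded proteins are sent for degradation, and Ube2g1 and Ube2k build chains that mark proteins for the proteasome. Ube2j1, which is anchored in that membrane, changed by -0.85 with limma's adjusted p = 0.0780. The others changed by -0.32 (Ube2j2), -0.24 (Ube2k), -0.11 (Ube2g2) and 0.18 (Ube2g1). Of the enzymes of cullin-RING ligases, Ube2f, which attaches NEDD8 to Cul5, changed by 0.32 and Ube2r2, a relative of Cdc34, by 0.31. Ube2z, which takes ubiquitin from Uba6, changed by -0.31, Ube2q1 by -0.22 and Ube2o, an E2 that also acts as its own ligase, by -0.03. Ube2w, which attaches ubiquitin to the N-terminus of proteins, changed by 0.78 in its main probe set (limma's adjusted p = 0.182).

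Probe sets for the same gene did not always point the same way. Of 16 Ube2 genes with several tested probe sets, 9 had changes of both signs, or 56.2%, against 44.9% of 4937 such genes on the array. They were Ube2b, Ube2d2a, Ube2d3, Ube2f, Ube2h, Ube2k, Ube2n, Ube2s and Ube2w. In 2 of the 16, Ube2h and Ube2w, or 12.5%, 1 probe set was called and another was not. Such a difference in calls was found in 19.1% of the 4937 genes. The widest range was in Ube2w. Its main probe set read 10.61, 10.89 and 10.65 in XY and 10.80, 9.70 and 9.33 in XX, where XX 1 sat among the XY arrays. A second read 9.52, 9.30 and 9.37 in XY and 9.97, 10.50 and 10.23 in XX and fell by 0.84 ± 0.19 (SE), with limma's adjusted p = 0.0355 over probe sets. The last tested one changed by 0.22. The 7 probe sets of Ube2d3 ranged from -0.54 to 0.49 and the 5 of Ube2f from -1.02 to 0.47, with none called. Over all 60 tested Ube2 probe sets, 2 were called higher and 5 lower, or 11.7%, against 10.5% of 22997 probe sets. Of all probe sets, 5.08% were higher and 5.41% lower in XY. The XY and XX values did not overlap in 28 of the 60, or 46.7%, against 36.6% of all probe sets.

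**Figure D3:**
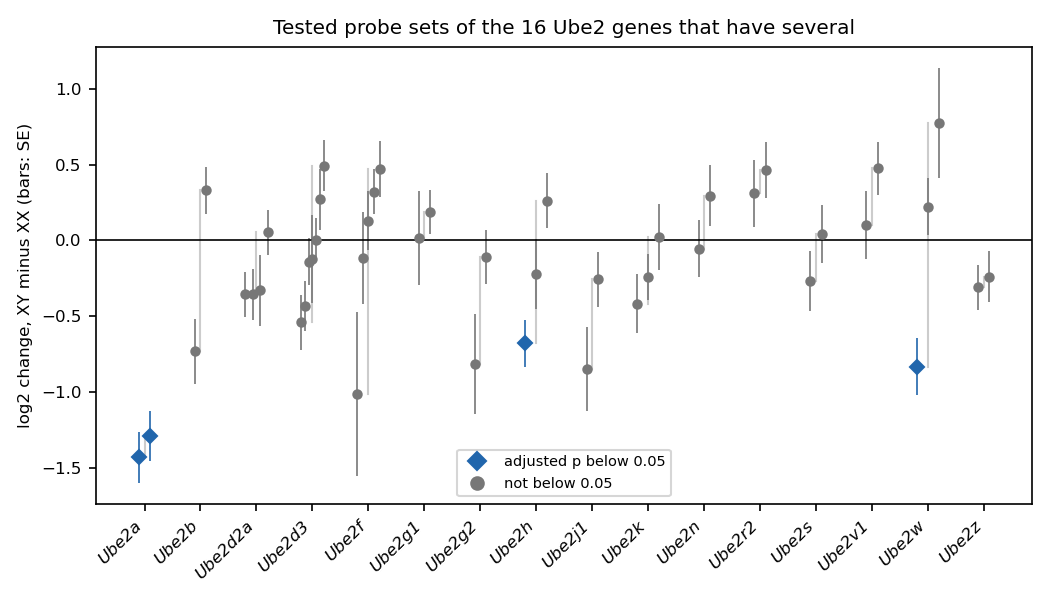
Log2 change, XY minus XX, of every tested probe set of the 16 Ube2 genes that have several, side by side for each gene along the horizontal axis, with bars for SE and blue diamonds for the probe sets called in the fit over 22997 probe sets. The Ube2a probe sets lie at -1.43 and -1.29, whereas those of Ube2w lie on both sides of 0.

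The ligases, activating enzymes and modifiers that work with these enzymes were read from lists. Of 105 such genes tested, 12 were higher and 11 lower in XY, or 21.9% called, against 13.2% of all genes, and their median change was 0.03. The 12 include Y-linked Uba1y, whose call was given beforehand because XX animals lack the gene. X-linked Xiap, Cul4b and Huwe1 are among the 11, and 29.6% of X-linked genes were called. The lists were chosen with earlier results of these data known, so the share called is a description and not a test. Among the E1 enzymes, 2 of 7, Uba1y and Sae1, were called higher and none fell. Uba1y, the Y-linked E1, is absent from XX animals and served as a check of the labels: its deposited intensity was 4631, 3565 and 3793 in XY and 13.6, 26.8 and 5.91 in XX. No exact change is given, since the XX values were dim. Sae1, a subunit of the SUMO E1, rose by 1.01 (limma's adjusted p = 0.0104), but changed by 0.37 without a call when its probe sets were averaged (limma's adjusted p = 0.118). Uba6, the E1 that charges Ube2z, changed by 0.68 without a call (limma's adjusted p = 0.0571). None of the 4 genes that encode ubiquitin itself had a probe set of a single symbol.

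Of the 7 ligases of Ube2a and Ube2b, none was called in limma at the adjusted p, although Rad18 and Ubr3 had an unadjusted p below 0.05, and their median change was 0.35. Rad18, which carries Ube2a or Ube2b to PCNA, read 9.64, 10.05 and 9.65 in XY and 9.38, 8.95 and 9.00 in XX. The groups did not overlap, but the change of 0.67 was not called (limma's adjusted p = 0.0621). Rnf20 and Rnf40, which carry them to histone H2B, changed by 0.35 and 0.24. Ubr3 changed by 0.51 (limma's adjusted p = 0.108).

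Of 15 genes of the anaphase-promoting complex, its activators and its inhibitor, 1 rose and 1 fell. Cdc26, a small subunit, read 9.41, 9.54 and 9.44 in XY and 8.75, 8.20 and 8.39 in XX and rose by 1.02 (limma's adjusted p = 0.0160). With its probe sets averaged the change was 0.46 and was not called (limma's adjusted p = 0.106). Fbxo5, an inhibitor of the complex that is also called Emi1, read 10.93, 11.09 and 11.14 in XY and 11.68, 12 and 11.96 in XX. It fell by 0.83 (limma's adjusted p = 0.0193). Both partners of Ube2t that were called rose: Fancd2, a target of Ube2t, by 0.86 (limma's adjusted p = 0.0114) and Fancl, the ligase, by 0.97 (limma's adjusted p = 0.0288). Averaged over its probe sets, Fancd2 changed by 0.39 without a call (limma's adjusted p = 0.140).

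Of 7 ligases of Ube2n, 1 rose and 2 fell. Hltf, a ligase that extends chains on PCNA, read 10.04, 9.88 and 9.89 in XY and 8.67, 8.80 and 8.72 in XX and rose by 1.21 (limma's adjusted p = 0.00513). Shprh, the other such ligase, moved the opposite way, by -1.30 (limma's adjusted p = 0.0420). Xiap, an X-linked inhibitor of apoptosis that is also on the list of 9 Ube2d and Ube2e ligases, changed by -1.57 (limma's adjusted p = 0.0125). On that list Siah1a, read by a probe set that may bind several transcripts by its suffix, fell by 0.62 and Nedd4 rose by 0.71. With probe sets averaged, Shprh changed by -0.76 and Xiap by -0.99, still called by limma, whereas Siah1a at -0.59 and Nedd4 at 0.35 were not. With the Actb covariate Shprh changed by -0.63 and was not called.

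Of 10 ligases and channel proteins of the endoplasmic reticulum and of ubiquitin chains, 1 rose and 2 fell. Derl1, a channel protein that helps to pull misfolded proteins out of the membrane, read 8.58, 8.76 and 8.55 in XY and 6.93, 5.31 and 6.38 in XX, a rise of 2.42 ± 0.38 (SE, limma's adjusted p = 0.0114). Its relative Derl2 fell by 0.54 (limma's adjusted p = 0.0479), and X-linked Huwe1, a large HECT ligase, fell by 0.79 (limma's adjusted p = 0.0312). By its suffix the probe set that stood for Derl1 may bind several transcripts. With probe sets averaged, Derl1 rose by 0.96 (limma's adjusted p = 0.0347), and Derl2 changed by -0.17 without a call (limma's adjusted p = 0.506). Of 14 cullin-RING genes, 2 rose and 3 fell. Cul7 read 8.48, 8.51 and 8.72 in XY and 6.36, 6.09 and 6.76 in XX, and rose by 2.17 ± 0.20 (SE, limma's adjusted p = 0.00322). Rnf7, the RING protein that pairs with Cul5, rose by 1.18, while Cul5 itself fell by 1.24. Averaged over its probe sets Rnf7 rose by 0.77, and with the Actb covariate it changed by 0.78 without a call. X-linked Cul4b fell by 0.94 and Dcun1d5, which helps to attach NEDD8, fell by 0.62.

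The remaining lists held 1 call each. Of 8 RBR ligases, the class that takes ubiquitin from Ube2l3, Arih2 read 9.60, 10.07 and 9.81 in XY and 8.42, 7.25 and 7.74 in XX and rose by 2.03 ± 0.30 (SE, limma's adjusted p = 0.00992). By its suffix the probe set that stood for Arih2 may bind several transcripts. With its probe sets averaged the rise of Arih2 was 0.61 (limma's adjusted p = 0.0352). Of 11 SUMO ligases and proteases, Senp1 was called, with a change of -1.23 (limma's adjusted p = 0.0333) that depended on single arrays. Without XX 2 it was -0.19 (limma's adjusted p = 0.563), without XX 3 it was -0.16 (limma's adjusted p = 0.610), and with probe sets averaged it was -0.56 (limma's adjusted p = 0.0708). Of 7 ubiquitin-like modifiers Ubl5 fell by 0.59 (limma's adjusted p = 0.0340), and of 8 E2-like genes without the prefix Atg10, an autophagy E2, rose by 1.0 (limma's adjusted p = 0.0334). Beside it, Birc6, a giant protein with an E2 domain, changed by -1.10 without a call (limma's adjusted p = 0.0909). The medians of the lists ran from -0.20 to 0.35, except for the 3 partners of Ube2t at 0.86.

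**Figure D4:**
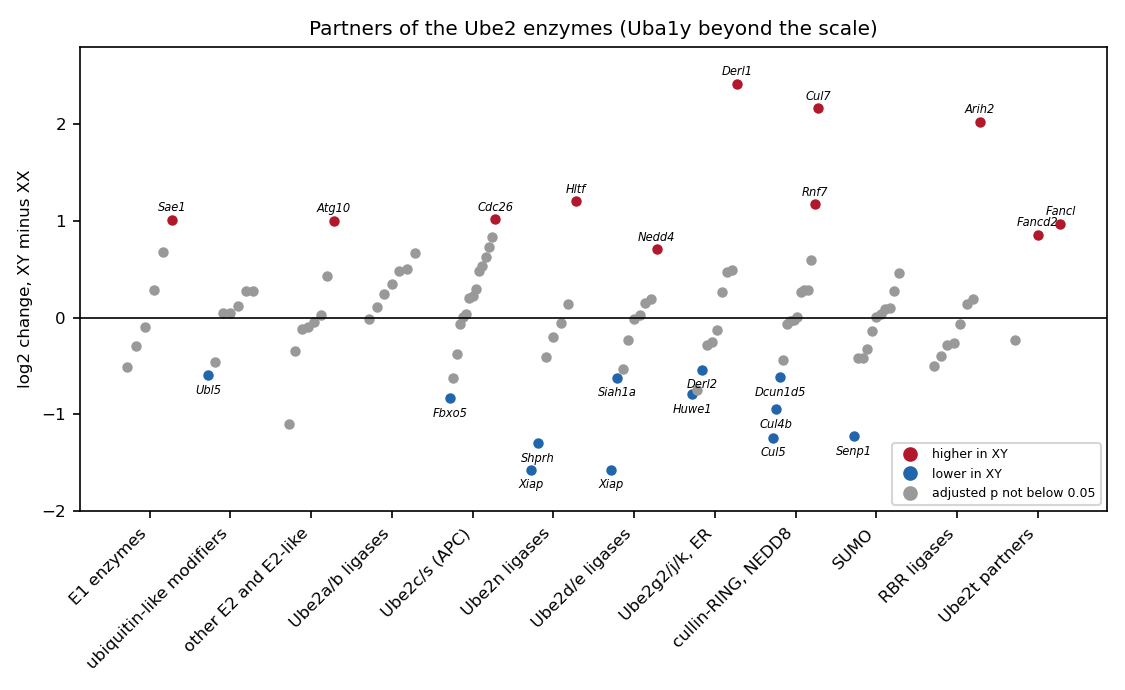
Log2 change, XY minus XX, of the tested partner genes, grouped along the horizontal axis by the enzymes they work with, with called genes named in red (higher) or blue (lower) and Uba1y left off the scale because it lies far above. Derl1, Cul7 and Arih2 lie above 2, and X-linked Xiap, Huwe1 and Cul4b lie below 0.

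Array quality and the markers of other cells are given as measured. The summed markers of theca and stroma and of blood and immune cells were higher on all XY arrays. Those of granulosa and cumulus cells and of endothelium overlapped between the groups. The log2 ratio of the 3' to the 5' control probe set of Actb, a measure of RNA integrity and amplification, was 5.90, 5.20 and 5.61 in XY and 5.53, 3.87 and 4.0 in XX. XX 1 thus resembled the XY arrays in this ratio. With the ratio as a covariate, Ube2a alone was called among the 31 genes, while 1.9% of all genes were called. Arrays correlated at 0.980 to 0.982 within XY, at 0.967 to 0.983 within XX and at 0.940 to 0.962 between the groups. XX 1 lay 15.6% of the way from the mean of XX 2 and XX 3 to the XY mean for Ube2a and 9.7% for Ube2h, but 60.4% for Ube2q2, 62.5% for Ube2u, 48.6% for Ube2cbp and 33% for Ube2d-ps. The median over all called genes was 16.8%. Without XX 1, 9 of the 31 genes were called, 5 higher and 4 lower, when 26% of all genes were called. All 15 oocyte markers passed the filter, with summed normalized intensities of 100316 to 105841 in XY and 111006 to 118719 in XX. Summed levels were 1515 to 1630 in XY and 1331 to 1610 in XX for granulosa and cumulus markers, of which 9 of 13 passed and the defining gene Amh did not. Nr5a2, which made up a large part of that sum, read 773, 721 and 800 in XY and 931, 940 and 710 in XX. Inha, a granulosa gene, read 252, 219 and 176 in XY and 139, 50.8 and 37.6 in XX, so that all XY arrays lay above all XX arrays. Kitl, on the same list, went the other way without overlap, at 149.1, 128.6 and 109.3 in XY and 177.5, 252.3 and 187.5 in XX. The other granulosa and cumulus markers that passed the filter overlapped between the groups. The summed levels were 549 to 713 in XY and 339 to 363 in XX for theca and stroma markers (5 of 9 passed, without Cyp17a1). They were 374 to 409 in XY and 173 to 252 in XX for blood and immune markers (3 of 7 passed, without Ptprc). For endothelium they were 278 to 345 in XY and 206 to 351 in XX (3 of 5 passed, without Cdh5). In such pooled RNA, fewer cells of a type and less RNA per cell cannot be told apart. The part of these differences in the results on the Ube2 genes was not tested beyond the covariate.

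**Figure D5:**
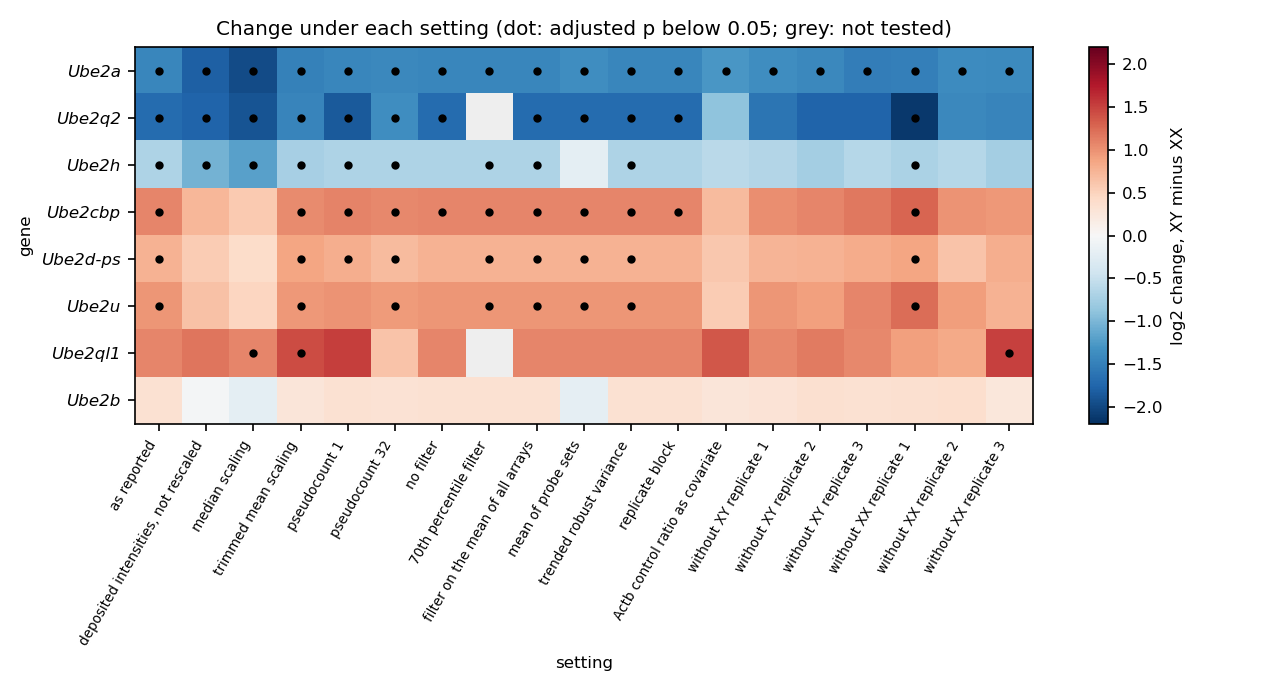
Log2 change, XY minus XX, as colour for the 6 called Ube2 genes, Ube2ql1 and Ube2b (rows) under each setting (columns), with a dot where limma's adjusted p lay below 0.05. Ube2a has a dot in each of its 18 alternatives, the other 5 called genes lack it in several, and Ube2b has none and changes colour.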

How the data were processed

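The authors deposited linear intensities, 1 for each probe set and array, and the submitters' processing notes name MAS5 and no other tool. No version, scaling target or present call was stated in the sources used here. The values did not share a level between arrays (median 24.6 to 31.4), so they were quantile-normalized across the 6 arrays and taken as log2(intensity + 9), where 9 is close to the 25th percentile of the deposited values (8.71). Quantile normalization hides a change in total mRNA. A probe set was kept at or above its array's median on at least 3 arrays, and the brightest stood for its gene. The platform annotation gave 34945 probe sets 1 symbol, 932 several and 9160 none, and 34741 of those with 1 symbol were found by gene ID among the mouse genes of GRCm38.p6.

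XY was compared with XX by limma 3.58.1 (lmFit and eBayes) in R 4.3.3, over all genes and, apart, over all probe sets, after the steps had been tested on simulated data. The difference between Ube2a and Ube2b was tested by an exact two-sided permutation. Samples labelled as biological replicates came from separate females, and 3 arrays a group limit the precision. The rule for named genes took the called Ube2 genes, those with an absolute change of at least 1, X-linked Ube2 genes, Ube2b, genes whose probe sets disagree, and the called members, or otherwise those of smallest p, of each partner list. The members, the lists and this rule were chosen with earlier results of these data known. Alternatives changed the pseudocount, scaling, filter, choice of probe set, variance model, threshold, replicate block and control ratio, or left out each array in turn. XO and growing oocytes, which the protocols mention, were not analysed here. Promoter windows were read from RefSeq sequences.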

Additional observations from a re-analysis of the deposited data

How the results depend on the processing

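Ube2a was lower in XY and called in 18 of 18 alternatives, and its second probe set in 17 of 18, the exception being the Actb control ratio as a covariate (adjusted p = 0.0598 in limma). The other called genes kept their direction but not their call: Ube2q2 was called in 11 of 17 alternatives, Ube2cbp in 10 of 18, Ube2h in 9, Ube2d-ps in 8 and Ube2u in 7, and leaving out any array but XX 1 left none of these 5 called. Ube2b was called in 0 of 18 by limma and reversed to -0.04 on the deposited intensities, -0.21 with median scaling and -0.20 with the mean of probe sets. The Ube2w probe set that fell was called in 9 of 18, and Ube2ql1 in 3 of 17. The 3 Ube2 genes higher in XY became 0 on the deposited intensities, 1 with median scaling, 1 with no filter, 0 with the Actb covariate and 6 at an adjusted p of 0.10, and 0 to 5 when 1 array was left out. The 3 lower became 5 with median scaling, 5 with a trended robust variance, 1 with the Actb covariate and 5 at an adjusted p of 0.10, and 1 to 4 when 1 array was left out. Of all genes, 13.2% were called in the main setting, 8.05% on the deposited intensities, 16.9% with median scaling, 5.02% with no filter, 19.4% with the trended variance and 1.9% with the Actb covariate. This share was 16.2% with trimmed mean scaling and 25.8% with the 70th percentile filter. It was 11.1% with a pseudocount of 1 and 17.5% with a pseudocount of 32. Without 1 array the share was 3.99% to 5.02%, except for 26% without XX 1. With any XY array or XX 2 left out, the lone Ube2 call was Ube2a. The probe set counts that follow stand without a share over all probe sets, which was not computed for the alternatives. Of probe sets, the 2 higher became 0 on deposited intensities, 0 with median scaling, 4 with trimmed mean scaling, 1 with a pseudocount of 1, 4 with a pseudocount of 32, 0 with no filter, 5 with the 70th percentile filter, 5 with the trended variance, 0 with the Actb covariate and 6 at an adjusted p of 0.10, and 0 to 5 without 1 array. The 5 lower became 3, 11 and 2 on deposited intensities, with median scaling and with no filter, then 8 with the 70th percentile filter, 11 with the trended variance, 0 with the Actb covariate and 9 at an adjusted p of 0.10, and 2 to 9 without 1 array. Unadjusted, 21 of the 60 probe sets and 12 of the 31 genes had a p below 0.05 in limma. Over the whole array this held for 6959 of 22997 probe sets and 4003 of 12442 genes. The median change of the Ube2 genes, -0.03, was -0.22 on deposited intensities, -0.39 with median scaling, 0.09 with trimmed means, 0.04 with no filter and -0.11 with the mean of probe sets, when the median of all genes was -0.12, -0.27, 0.18, 0.04 and 0.03, and it ran from -0.03 to 0.05 without 1 array. The shift of Ube2a relative to Ube2b was -1.16 with the mean of probe sets and -1.53 with the Actb covariate. The cause of these changes was not tested. Same-numbered arrays deviated from their group means with correlations of -0.10, 0.00 and -0.04, so no shared deviation was seen. With 3 arrays a group these values cannot exclude a pairing by number. With the replicate block 1 Ube2 gene was higher and 2 were lower (Ube2cbp, Ube2a and Ube2q2), 0 probe sets were higher and 3 lower, and 679 of all genes, or 5.46%, were called. The 23 called partners were put through the same alternatives after their values had been seen: Cul7 and Uba1y were called in each of them, and none reversed. Uba1y is counted among the 23, although XX animals lack the gene and its call was given beforehand. Of the 23, 12 remained called on the deposited intensities, 15 with median scaling, 12 with no filter, 16 with the mean of probe sets, 9 with the replicate block, 3 with the Actb covariate, and 8 or 9 without any 1 array other than XX 1. Median scaling moved the median of all genes to -0.27, against 0.07. No present calls were used, so dim genes are limited by the filter alone.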
